A study of Mus musculus with 16 samples.

Results

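The integrin and laminin genes of mouse heart were examined in RNA-Seq counts from the apex of 16 hearts. Members were chosen by symbol alone: Itga or Itgb followed by a number, a number with b or a single letter, and Lama, Lamb or Lamc followed by a number. Of the 55573 genes counted, 37 had such a symbol, and the 33 with at least 10 counts in 4 or more mice were analysed. These were 24 of 26 integrin genes (16 of 18 alpha subunits and all 8 beta subunits) and 9 of 11 laminin genes. Itgad, Itgae and Lamc3 never exceeded 8 counts in a mouse, and Lama1 was listed at 0 in all 16 mice. All 33 analysed members passed the expression filter used for testing, so the filter removed none of them.

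Male wild-type mice had received AAV9 as newborns. The virus carried GFP or the long noncoding RNA Cardinal (listed in the counts as Gm12295) behind the cardiac troponin T promoter, which restricts the transgene to cardiomyocytes. Hearts were collected 4 weeks after sham surgery or transverse aortic constriction (TAC), in which a ligature narrows the aorta and raises the pressure that the left ventricle works against. Crossing the viruses with the surgeries gave 4 groups of 4 mice, and all mice of all groups carried a virus, so none shows the heart without AAV9. Strain and age at surgery were not given in the sources used here.

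Gene counts summed to 16441997 in the shallowest library and to 21904589 in the deepest. Levels are given as CPM, a gene's counts scaled to the size of its library, and 3 counts correspond to between 0.137 and 0.182 CPM, which covers counting error only. The tissue carried the RNA of ventricular muscle: the 6 cardiomyocyte markers (Myh6, Tnnt2, Actc1, Tnni3, Ryr2 and Myl2) were present in every mouse, with Myh6 between 13310 and 21220 CPM. Cardinal was between 3.42 and 7.24 CPM in the 8 AAV9-GFP hearts and between 18.3 and 93.9 CPM in the 8 AAV9-Cardinal hearts. One AAV9-Cardinal TAC mouse, replicate 1, stood apart, with Cardinal at 93.9 CPM against 18.3 to 20.6 CPM in the other 3. The same mouse had Postn at 114.9 CPM against 38.2 to 51.2 CPM. Its fibroblast markers were also high (620.7 CPM in sum against 393.5 to 413.8 CPM). Calls printed for a named gene that turn on this mouse are given with and without it.

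Integrins are receptors made of an alpha and a beta subunit that span the plasma membrane and tie the cytoskeleton to the matrix around the cell. Laminins are trimers of an alpha, a beta and a gamma chain and form the sheet of the basement membrane that surrounds each cardiomyocyte and underlies the endothelium. In striated muscle the main laminin receptors are integrin alpha7 paired with beta1 and the dystroglycan complex. Integrins that bind fibronectin and other provisional matrix proteins carry alpha5, alpha8, alphav or alpha9 subunits, and a separate group with beta2 or beta7 is made by leukocytes.

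Promoter windows from RefSeq are shown for members whose transcripts changed after TAC, to give the sequence around an annotated start beside the values that follow. Each window runs from 250 bases before to 50 bases after an annotated start on GRCm38.p6. Capitals mark matches, on either strand, to 5 short motifs: AP-1 (TGANTCA), the GC box (GGGCGG), TEAD (GGAATG), the TATA box (TATAAA) and the CCAAT box, searched as the letters of its name. No matches overlapped in the windows shown.
Itga5, chr15:103366742-103367041, minus strand: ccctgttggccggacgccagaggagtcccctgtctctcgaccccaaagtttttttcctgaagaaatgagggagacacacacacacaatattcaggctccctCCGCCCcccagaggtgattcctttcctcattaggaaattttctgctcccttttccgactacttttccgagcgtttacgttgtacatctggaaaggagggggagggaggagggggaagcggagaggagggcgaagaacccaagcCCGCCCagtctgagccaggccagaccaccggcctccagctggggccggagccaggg
Itga9, chr9:118711442-118711741, plus strand: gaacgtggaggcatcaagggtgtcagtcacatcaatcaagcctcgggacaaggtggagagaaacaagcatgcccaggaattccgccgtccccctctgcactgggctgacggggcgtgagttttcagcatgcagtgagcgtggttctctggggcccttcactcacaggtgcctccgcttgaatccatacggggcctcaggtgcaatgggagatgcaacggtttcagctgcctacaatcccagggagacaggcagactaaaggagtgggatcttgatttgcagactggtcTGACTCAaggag
Itgb8, chr12:119238227-119238526, minus strand: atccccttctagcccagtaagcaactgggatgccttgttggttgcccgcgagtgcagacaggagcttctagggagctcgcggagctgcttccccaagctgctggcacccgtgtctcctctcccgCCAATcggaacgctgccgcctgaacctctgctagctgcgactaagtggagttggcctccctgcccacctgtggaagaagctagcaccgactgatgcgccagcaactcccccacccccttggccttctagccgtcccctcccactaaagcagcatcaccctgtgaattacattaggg
Lamb1, chr12:31265043-31265342, plus strand: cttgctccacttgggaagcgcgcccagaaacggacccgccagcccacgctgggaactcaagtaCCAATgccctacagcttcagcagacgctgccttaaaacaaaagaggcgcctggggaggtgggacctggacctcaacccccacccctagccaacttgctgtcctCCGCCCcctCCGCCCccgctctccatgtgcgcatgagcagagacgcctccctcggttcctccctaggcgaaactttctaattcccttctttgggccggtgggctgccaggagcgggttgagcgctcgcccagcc
Lamb3, chr1:193301744-193302043, plus strand: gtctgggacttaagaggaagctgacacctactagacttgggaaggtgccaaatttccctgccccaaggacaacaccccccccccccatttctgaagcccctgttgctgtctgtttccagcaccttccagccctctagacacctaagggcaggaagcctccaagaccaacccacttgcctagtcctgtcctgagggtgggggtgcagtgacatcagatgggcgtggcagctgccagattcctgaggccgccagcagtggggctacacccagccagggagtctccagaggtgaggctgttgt

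The Itga5 window held 2 GC boxes, the Lamb1 window 2 GC boxes and 1 CCAAT box, the Itgb8 window 1 CCAAT box and the Itga9 window 1 AP-1 match, while the Lamb3 window shown held 0 matches. A second annotated window of Lamb3, which overlaps the first and is not shown, held 1 TEAD match, and that of Itgb7 held 0 matches. Among all 32851 promoter windows of the table, 35.7% held a GC box, 37.4% a CCAAT box, 14.7% a TEAD match, 13.6% a TATA box and 7.81% an AP-1 match. A match is a string of letters and not a bound site. The windows of Itga9 and Lamb3 lie 105002 and 94295 bases inside the gene bodies annotated by GENCODE M21. That annotation thus places a start further upstream for both, whose sequence is not shown. Itgb3 and Lamc1 are named only.

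In AAV9-GFP sham hearts, levels were compared between genes as CPM per kilobase of exon, which takes out gene length. Itgb1, the beta subunit shared by most matrix receptors, led with 77.5 ± 7.03 CPM per kb (SD, n = 4). Lamb2 followed with 33.7 ± 1.95 and Lamc1 with 16.9 ± 0.859 CPM per kb, and these are the beta and gamma chains of the common laminins of adult muscle. Neither pair of neighbors in this order overlapped between mice. Itgb5 (14.02 ± 1.10 CPM per kb) and Itga7 (12.8 ± 0.775 CPM per kb) came next and overlapped with each other.

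A second tier, from Itga5 at 8.56 ± 1.41 to Lama4 at 5.28 ± 0.403 CPM per kb, held 7 members whose neighbors in the order all overlapped. It contained 3 laminin alpha chains: Lama5 (8.36 ± 3.67 CPM per kb) and Lama4, which are chains of vascular basement membranes, and Lama2 (5.68 ± 0.523 CPM per kb), the chain of the muscle cell surface. Within the alpha chains, Lama5 made up 41.5%, Lama2 29.9% and Lama4 27.5% of the level per length. Within the beta chains, Lamb2 made up 80.4%, Lamb1 16.1% and Lamb3 3.49%. The Lama5 share rested in part on replicate 1 of AAV9-GFP sham, with 3322 Lama5 counts against 1361 to 1694 in the other 3 mice, and Lamb3 was also highest in that mouse (302 counts against 142 to 185).

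Among the alpha subunits, Itga7, the muscle laminin receptor, made up 32.2% of the summed level per length in AAV9-GFP sham hearts, Itga5 21.4%, Itga6 13.7% and Itga9 13.3%. Among the beta subunits, Itgb1 made up 81.8% and Itgb5 14.9%. The 33 analysed members spanned from Itgb1 down to 0 in this group. Itgb7 was listed at 0 in all 4 AAV9-GFP sham mice, and Itgax, the leukocyte alphaX subunit, was above 0 in 1 of them.

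**Figure D1:**
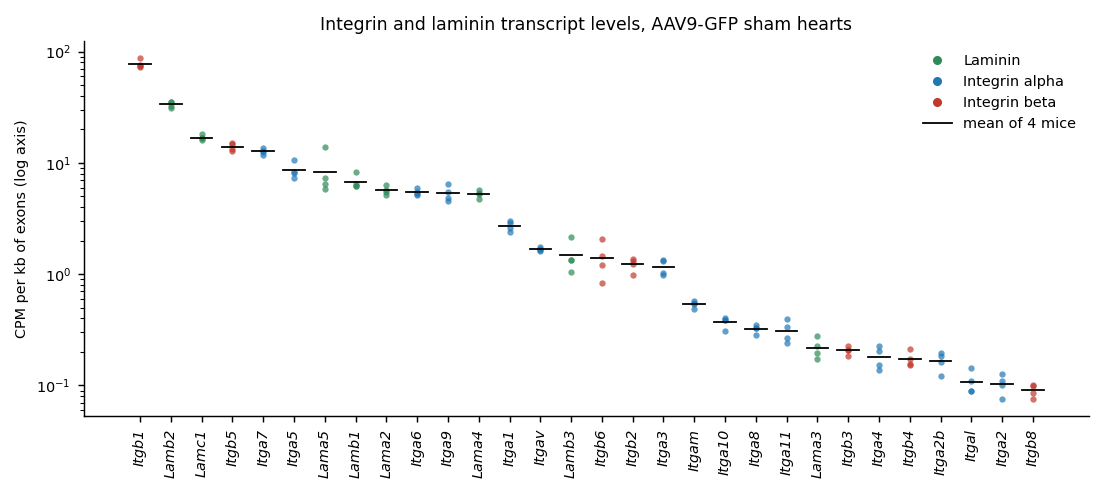
Level of 30 of the 33 analysed members in AAV9-GFP sham hearts, in CPM per kilobase of exon on a log axis, with a point for each of the 4 mice and a line at their mean; those left out include Itgax and Itgb7, which are at 0 in 1 or more of these mice. Itgb1 and Lamb2 stand above all others, and Itgb8 is the lowest member plotted at 0.0906 CPM per kb.

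Zeros of low genes need care in these counts. Across all genes, there were 341 cases in which a mouse was listed at 0 while the other 3 mice of its group each had at least 10 counts, and 92 cases in which such a mouse had 1 to 3 counts. Of the 341 cases, 62 came from AAV9-Cardinal sham replicate 4, the shallowest library, and between 9 and 29 from each other mouse. Of the 592 values of the 37 members, 73 were 0 and 0 were 1 or 2. Itgb4 was listed at 0 in AAV9-Cardinal sham replicate 4 and at 20 to 42 counts in the other 15 mice. No fold change is therefore given against a group listed at 0.

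After TAC in AAV9-GFP hearts, 6 of the 33 members were higher and 1 was lower at an adjusted p under 0.05 (edgeR's quasi-likelihood test, Benjamini-Hochberg over all 16857 genes). The 6 were the alpha subunits Itga5 and Itga9, the beta subunits Itgb3, Itgb8 and Itgb7, and the laminin gamma chain Lamc1, and the one that fell was the laminin beta chain Lamb3. Over all genes tested, 17.4% were called, 8.49% higher and 8.92% lower. The share of members called was thus close to that of all genes, with most of the calls upward. At an unadjusted p under 0.05 there were 17 members (29.9% of all genes), the groups did not overlap for 8 (20.3% of all genes), and DESeq2 called 9 (17.2% of all genes with an adjusted p). The median log2 fold change was 0.29 over the members and 0.01 over all genes. In all, 26 of the 33 members had a log2 fold change above 0, against 50.9% of all genes.

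In AAV9-Cardinal hearts, 4 members were higher after TAC (Itga5, Itga9, Lamb1 and Lamc1) and Lamb3 was lower, a total of 5 of 33 where 6.48% of all genes were called (3.1% higher and 3.38% lower). At an unadjusted p under 0.05 there were 11 members (21.8% of all genes), the groups did not overlap for 8 (13.7% of all genes), and DESeq2 called 7 (9.38% of all genes with an adjusted p). The median log2 fold change was 0.12 over the members and -0.00047 over all genes. It was above 0 for 20 of the 33 members, against 49.9% of all genes. The comparisons within each virus share no mice, but both use 1 model and its estimate of spread, so their calls are not independent. Itga5, Itga9, Lamc1 and Lamb3 were called in both, in the same direction, which is 57.1% of the members called with AAV9-GFP and 80.0% of those called with AAV9-Cardinal. Over all genes the corresponding shares were 25.6% and 68.8%. Itga9 and Lamc1 were called with each of the 16 mice left out in turn. The count in AAV9-Cardinal hearts fell to 2 without sham replicate 1, sham replicate 2, TAC replicate 5 or TAC replicate 6, and to 3 without sham replicate 3 or TAC replicate 4.

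**Figure D2:**
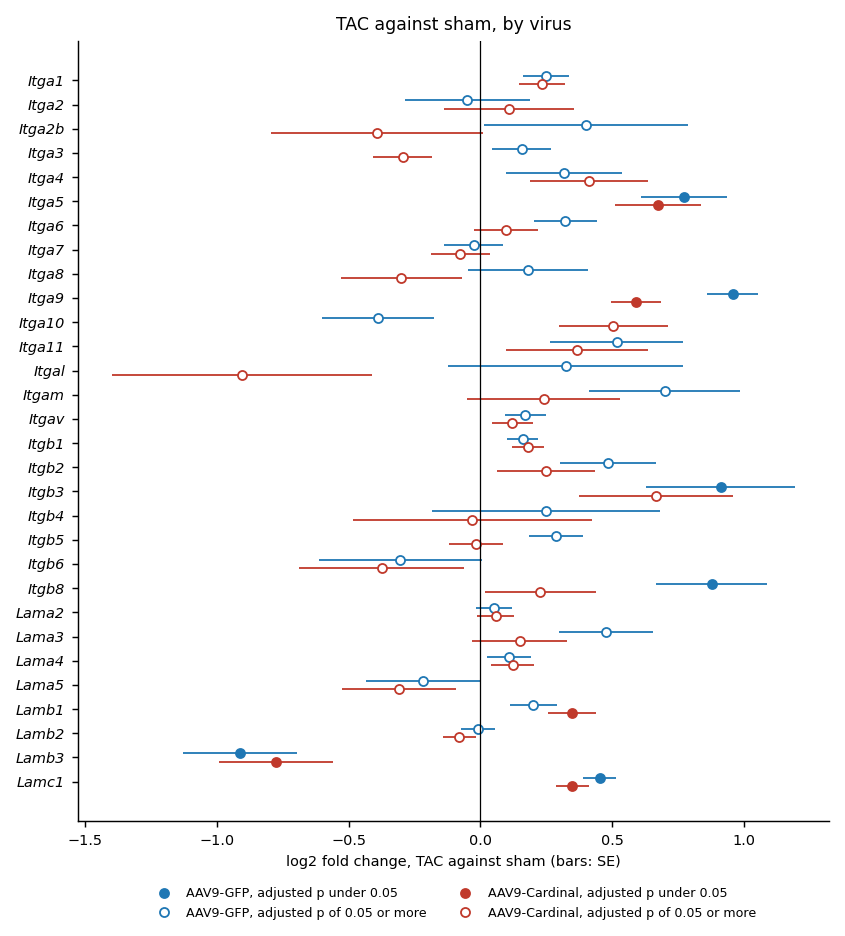
Log2 fold change of TAC against sham with its standard error for 30 of the 33 analysed members (those left out include Itgax and Itgb7, which have many zeros), in AAV9-GFP hearts (blue) and AAV9-Cardinal hearts (red). Filled points have an adjusted p under 0.05; Itga5, Itga9 and Lamc1 are filled to the right and Lamb3 to the left for both viruses.

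Itga9, a subunit that pairs with beta1 and binds tenascin-C and other matrix proteins, changed the most with AAV9-GFP among members with counts in every mouse. The gene lies at chr9:118606690-118901003. It was at 34.7, 42.3, 37.2 and 49.8 CPM in AAV9-GFP sham hearts and at 70.5, 86.7, 77.5 and 83.8 CPM in AAV9-GFP TAC hearts. It was at 39.9, 41.6, 40.3 and 36.4 CPM in AAV9-Cardinal sham hearts and at 61.5, 61.5, 60.2 and 55.2 CPM in AAV9-Cardinal TAC hearts. The TAC and sham mice of each virus did not overlap, and every AAV9-Cardinal TAC mouse lay below every AAV9-GFP TAC mouse. The log2 fold change after TAC was 0.96 (SE 0.095) with AAV9-GFP (adjusted p = 1.94e-05) and 0.59 (SE 0.095) with AAV9-Cardinal (adjusted p = 0.00414, edgeR).

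Itga5 is the alpha subunit of the main fibronectin receptor and lies at chr15:103344286-103366763 on the minus strand, downstream of the window printed above. AAV9-GFP sham hearts had 35.9, 40.1, 40.7 and 52.2 CPM, and AAV9-GFP TAC hearts 59.1, 78.2, 69.1 and 82.1 CPM. AAV9-Cardinal sham hearts had 34.7, 37.2, 45.9 and 48.3 CPM, and AAV9-Cardinal TAC hearts 51.9, 54.5, 80.5 and 77.8 CPM. Again the groups did not overlap for either virus. The log2 fold change was 0.77 (SE 0.16, adjusted p = 0.0045) with AAV9-GFP and 0.67 (SE 0.16, adjusted p = 0.0268) with AAV9-Cardinal (edgeR). The latter call was lost without AAV9-Cardinal sham replicate 1 or 2 or AAV9-Cardinal TAC replicate 5 or 6, with adjusted p between 0.080 and 0.0941 and log2 fold changes between 0.57 and 0.63.

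The other alpha subunits did not pass the threshold in either virus with edgeR. For the laminin-binding subunits, Itga7 changed by -0.03 (SE 0.11) with AAV9-GFP and -0.08 (SE 0.11) with AAV9-Cardinal on the log2 scale, Itga6 by 0.32 (SE 0.12, adjusted p = 0.0816) and 0.10 (SE 0.12), and Itga3 by 0.16 (SE 0.11) and -0.29 (SE 0.11). Itga7 was between 88.6 and 131.7 CPM in the 16 hearts. Itga3 was lower in all AAV9-Cardinal TAC than in all AAV9-Cardinal sham mice, but with an adjusted p of 0.133. Itga6 passed with AAV9-GFP without TAC replicate 4 (adjusted p = 0.0210) or TAC replicate 7 (adjusted p = 0.0385).

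The 4 collagen-binding subunits (Itga1, Itga2, Itga10 and Itga11) had 0 calls in either virus with edgeR. An unadjusted p under 0.05 was seen for 1 of them with AAV9-GFP (29.9% of all genes) and 2 with AAV9-Cardinal (21.8% of all genes). Itga1, the most abundant of them, had log2 fold changes of 0.25 (SE 0.088, adjusted p = 0.0629) and 0.23 (SE 0.088, adjusted p = 0.130), and its AAV9-Cardinal TAC mice (58.7 to 61.5 CPM) all lay above its AAV9-Cardinal sham mice (44.8 to 54.8 CPM). DESeq2 called Itga1 with AAV9-GFP (log2 fold change 0.25, adjusted p = 0.0449), and edgeR did so without sham replicate 4 (adjusted p = 0.0386) or TAC replicate 1 (adjusted p = 0.0260) of that virus. Itga11, made by fibroblasts, had log2 fold changes of 0.52 (SE 0.25) and 0.37 (SE 0.27), Itga2 of -0.05 (SE 0.24) and 0.11 (SE 0.25), and Itga10 of -0.39 (SE 0.21) and 0.50 (SE 0.21).

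Beside Itga5, the subunits that recognize the RGD motif were Itgav, Itga8 and the platelet subunit Itga2b. Itgav was at 18.0 ± 0.747 CPM in AAV9-GFP sham and 20.2 ± 0.947 CPM in AAV9-GFP TAC hearts (SD, n = 4), with log2 fold changes of 0.17 (SE 0.078) and 0.12 (SE 0.078). Itga8 had log2 fold changes of 0.18 (SE 0.23) and -0.30 (SE 0.23), and Itga2b of 0.40 (SE 0.39) and -0.39 (SE 0.40). Itga4, a leukocyte and endothelial relative of Itga9, had 0.32 (SE 0.22) and 0.41 (SE 0.22).

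The 3 analysed leukocyte alpha subunits (Itgal, Itgam and Itgax) had 0 calls in either virus with edgeR or DESeq2. With edgeR, 1 with AAV9-GFP (29.9% of all genes) and 0 with AAV9-Cardinal (21.8% of all genes) had an unadjusted p under 0.05. Itgam, of macrophages and neutrophils, was between 2.45 and 2.89 CPM in AAV9-GFP sham and between 2.58 and 7.13 CPM in AAV9-GFP TAC hearts, with a log2 fold change of 0.70 (SE 0.29, adjusted p = 0.112, and 0.0372 without TAC replicate 4). Its partner Itgb2 had 0.49 (SE 0.18, adjusted p = 0.0840) with AAV9-GFP and 0.25 (SE 0.19) with AAV9-Cardinal, and passed with AAV9-GFP without TAC replicate 1 (adjusted p = 0.0404). Itgal, of lymphocytes, stayed between 0 and 1.09 CPM. Itgax had 12, 10, 5 and 0 counts in AAV9-GFP TAC hearts. Of the 50-base stretches of Itgam, 66.3% also occur in the annotated gene Gm49368, and of those of Itga10, 30.6% occur in Gm42957, so the counts of both are uncertain.

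Itgb1 was high in all mice. It was between 298 and 359 CPM in AAV9-GFP sham hearts, 336 and 377 CPM in AAV9-GFP TAC hearts, 298 and 326 CPM in AAV9-Cardinal sham hearts and 335 and 366 CPM in AAV9-Cardinal TAC hearts. Its log2 fold change after TAC was 0.16 (SE 0.059, adjusted p = 0.0771) with AAV9-GFP and 0.18 (SE 0.060, adjusted p = 0.0853) with AAV9-Cardinal. Without AAV9-GFP sham replicate 4, its highest sham mouse, the adjusted p was 0.00711 with AAV9-GFP and 0.0325 with AAV9-Cardinal, and DESeq2 called it with AAV9-Cardinal (adjusted p = 0.0416).

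Itgb5, which pairs with alphav, had log2 fold changes of 0.29 (SE 0.10, adjusted p = 0.0688) and -0.02 (SE 0.10). With AAV9-GFP it passed with DESeq2 (adjusted p = 0.0480) and, with edgeR, without AAV9-Cardinal TAC replicate 1 (0.29, adjusted p = 0.0460) or without AAV9-GFP TAC replicate 1 or 4 (adjusted p = 0.0364 and 0.0290). Itgb6, an epithelial partner of alphav, was between 3.63 and 14.7 CPM and was not called in either virus. Itgb4, the epithelial partner of Itga6, had log2 fold changes of 0.25 (SE 0.43) and -0.03 (SE 0.45). The latter includes the mouse listed at 0 in AAV9-Cardinal sham. Over the alternative settings it lay between -0.38 and 0.25 and changed sign in 6 of 24.

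Itgb8, which pairs with alphav and is known for activating TGF-beta, was low. Its counts were 20, 23, 23 and 17 in AAV9-GFP sham hearts and 34, 57, 40 and 41 in AAV9-GFP TAC hearts. They were 26, 28, 30 and 23 in AAV9-Cardinal sham hearts and 29, 50, 31 and 27 in AAV9-Cardinal TAC hearts. With AAV9-GFP the groups did not overlap and the log2 fold change was 0.88 (SE 0.21, adjusted p = 0.0101, edgeR). With AAV9-Cardinal the groups overlapped and it was 0.23 (SE 0.21, adjusted p = 0.593). The difference between these responses was -0.65 (SE 0.30) with an adjusted p of 0.480, so a difference between the viruses was not shown.

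Itgb3, the beta subunit of the vitronectin receptor and of the platelet fibrinogen receptor, had 23, 28, 25 and 25 counts in AAV9-GFP sham hearts and 33, 57, 46 and 78 counts in AAV9-GFP TAC hearts. The groups did not overlap, and the log2 fold change was 0.91 (SE 0.28, adjusted p = 0.0364, edgeR). The highest value, 78 counts, came from TAC replicate 7, which also had the highest levels of the platelet genes Pf4 (7.22 CPM) and Itga2b (2.26 CPM). The 5 platelet and megakaryocyte markers summed to between 5.96 and 13.0 CPM in AAV9-GFP TAC hearts and between 6.01 and 7.35 CPM in AAV9-GFP sham hearts, and none was at 0 in all mice. Without TAC replicate 7 the log2 fold change was 0.67 and the adjusted p 0.128, and the call was also lost without TAC replicate 3 or any 1 of the 4 AAV9-GFP sham mice. With AAV9-Cardinal the log2 fold change of Itgb3 was 0.67 (SE 0.29, adjusted p = 0.194).

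Itgb7, a leukocyte subunit, was listed at 0 in all 4 AAV9-GFP sham mice and at 13, 14, 7 and 7 counts in AAV9-GFP TAC mice (adjusted p = 0.0462, edgeR). Its counts were 0, 13, 10 and 0 in AAV9-Cardinal sham and 10, 0, 0 and 0 in AAV9-Cardinal TAC hearts. The mice at 0 and the mice with 7 or more counts thus occur within the same group, and the call was lost when any 1 of the 8 AAV9-GFP mice was left out, with adjusted p between 0.0585 and 0.099, and also without AAV9-Cardinal sham replicate 3 or AAV9-Cardinal TAC replicate 4 or 5. Of the lymphocyte markers, the 5 of T and NK cells, of which Nkg7 was at 0 in all mice, summed to at most 1.43 CPM and the 4 of B cells to at most 1.00 CPM in a mouse.

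**Figure D3:**
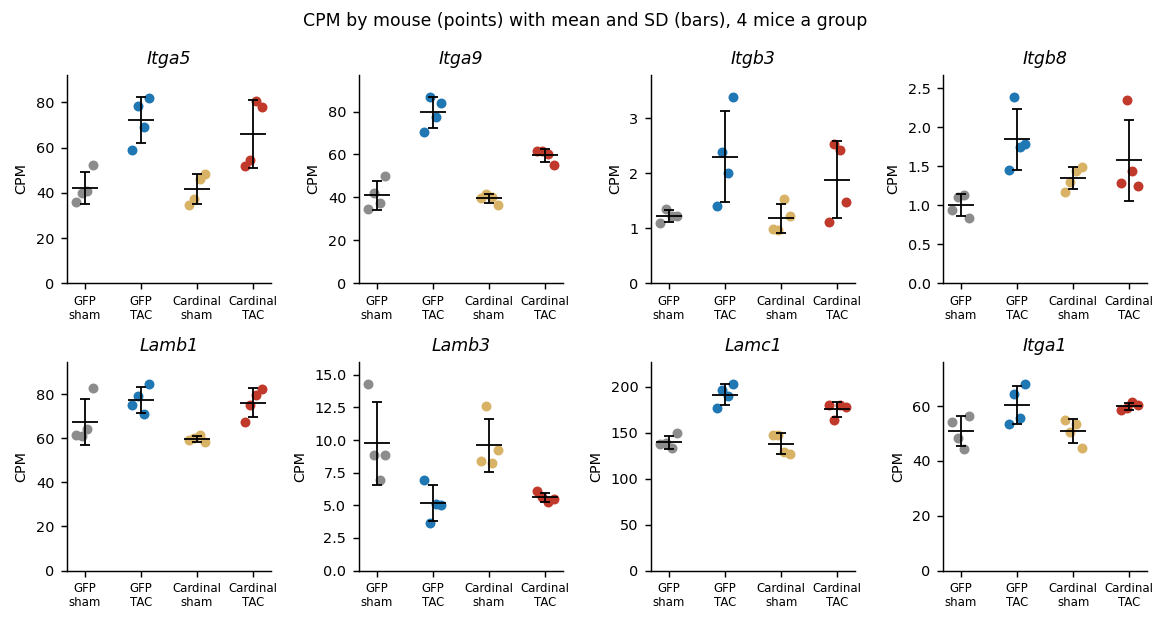
CPM of 8 members in every mouse (points, 4 per group) with the mean and SD (bars) on axes that start at 0. TAC mice lie above sham mice without overlap for Itga5, Itga9 and Lamc1 with both viruses, and below them for Lamb3.

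Lamc1, the gamma chain shared by nearly all laminins of the heart, lies at chr1:153218922-153332786. It was at 138, 138, 133 and 149.6 CPM in AAV9-GFP sham hearts and at 176, 196, 189.7 and 203 CPM in AAV9-GFP TAC hearts. It was at 147, 148, 129 and 127 CPM in AAV9-Cardinal sham hearts and at 179.5, 164, 180.1 and 178 CPM in AAV9-Cardinal TAC hearts. No TAC mouse of either virus overlapped with its sham group. The log2 fold change was 0.45 (SE 0.062, adjusted p = 2.0e-04) with AAV9-GFP and 0.35 (SE 0.062, adjusted p = 0.00594) with AAV9-Cardinal (edgeR).

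Its beta partners behaved differently from each other. Lamb2, the main beta chain, was not called, with log2 fold changes of -0.01 (SE 0.063) with AAV9-GFP and -0.08 (SE 0.064) with AAV9-Cardinal. Lamb1, the beta chain of developing and vascular basement membranes, was at 61.5, 60.9, 64.0 and 82.8 CPM in AAV9-GFP sham hearts and at 74.9, 79.0, 71.1 and 84.5 CPM in AAV9-GFP TAC hearts. Replicate 4 of AAV9-GFP sham lay inside the range of the TAC mice. The log2 fold change was 0.20 (SE 0.090, adjusted p = 0.147), and 0.32 (adjusted p = 0.00692) without that mouse. In AAV9-Cardinal hearts Lamb1 was at 59.1, 60.3, 61.3 and 58.5 CPM after sham and at 67.4, 75.2, 79.6 and 82.3 CPM after TAC, with no overlap, a log2 fold change of 0.35 (SE 0.091) and an adjusted p of 0.0351 (edgeR). This call was lost when any 1 of the 4 AAV9-Cardinal sham mice or TAC replicate 4, 5 or 6 was left out, with adjusted p between 0.0572 and 0.104.

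The log2 ratio of Lamb1 to Lamb2 within a mouse does not depend on library size. It rose from -1.81 to -1.38 in AAV9-Cardinal hearts, a difference of 0.43 with an exact permutation p of 0.0286, which is the smallest that 4 mice against 4 allow, and the p adjusted over 12 ratio tests was 0.343. In AAV9-GFP hearts the difference was 0.22 (exact permutation p = 0.114). The ratio of Itga5 to Itga7 differed between TAC and sham by 0.82 with AAV9-GFP (exact permutation p = 0.0571) and 0.74 with AAV9-Cardinal (exact permutation p = 0.0857). The ratio of Lama4 to Lama2 differed by 0.05 and 0.06. None of the 12 ratio tests, all 2-sided, passed after adjustment.

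Lamb3 and Lama3 encode a beta and an alpha chain known from epithelial basement membranes. Lamb3 (chr1:193207699-193343878) was at 14.3, 8.88, 6.96 and 8.85 CPM in AAV9-GFP sham hearts and at 6.94, 3.65, 5.07 and 5.04 CPM in AAV9-GFP TAC hearts. It was at 8.36, 12.6, 8.26 and 9.21 CPM in AAV9-Cardinal sham hearts and at 6.06, 5.64, 5.26 and 5.48 CPM in AAV9-Cardinal TAC hearts. All TAC mice lay below the sham mice of their virus, although the margin with AAV9-GFP was narrow (6.94 against 6.96 CPM). The log2 fold change was -0.91 (SE 0.22, adjusted p = 0.00872) with AAV9-GFP and -0.78 (SE 0.22, adjusted p = 0.0455) with AAV9-Cardinal (edgeR). The call with AAV9-GFP held without each mouse in turn, and the call with AAV9-Cardinal was lost without any 1 of the 8 AAV9-Cardinal mice and without AAV9-GFP sham replicate 2 or 4 or AAV9-GFP TAC replicate 4 or 7, with adjusted p between 0.0518 and 0.148.

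Lama3 was at 2.35 ± 0.480 CPM in AAV9-GFP sham and 3.27 ± 0.334 CPM in AAV9-GFP TAC hearts (SD, n = 4) with a log2 fold change of 0.48 (SE 0.18, adjusted p = 0.0797), and one of 0.15 (SE 0.18) with AAV9-Cardinal. It passed with AAV9-GFP without sham replicate 1 (0.61, adjusted p = 0.0395).

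The remaining laminin alpha chains were not called with either virus. Lama2, of the muscle cell surface, had log2 fold changes of 0.05 (SE 0.069) and 0.06 (SE 0.070), Lama4 of 0.11 (SE 0.082) and 0.12 (SE 0.083), and Lama5 of -0.22 (SE 0.22) and -0.31 (SE 0.22). Summed per length, the alpha chains were at 19.5 ± 3.38 CPM per kb in AAV9-GFP sham and 19.1 ± 0.511 in AAV9-GFP TAC hearts, and the beta chains at 42.0 ± 2.86 and 42.1 ± 2.31 CPM per kb (SD, n = 4). The integrin alpha subunits summed to 39.8 ± 2.55 and 53.5 ± 3.63 CPM per kb with AAV9-GFP, and to 40.3 ± 0.745 and 48.2 ± 2.89 CPM per kb with AAV9-Cardinal. The sums are descriptions and were not tested.

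**Figure D4:**
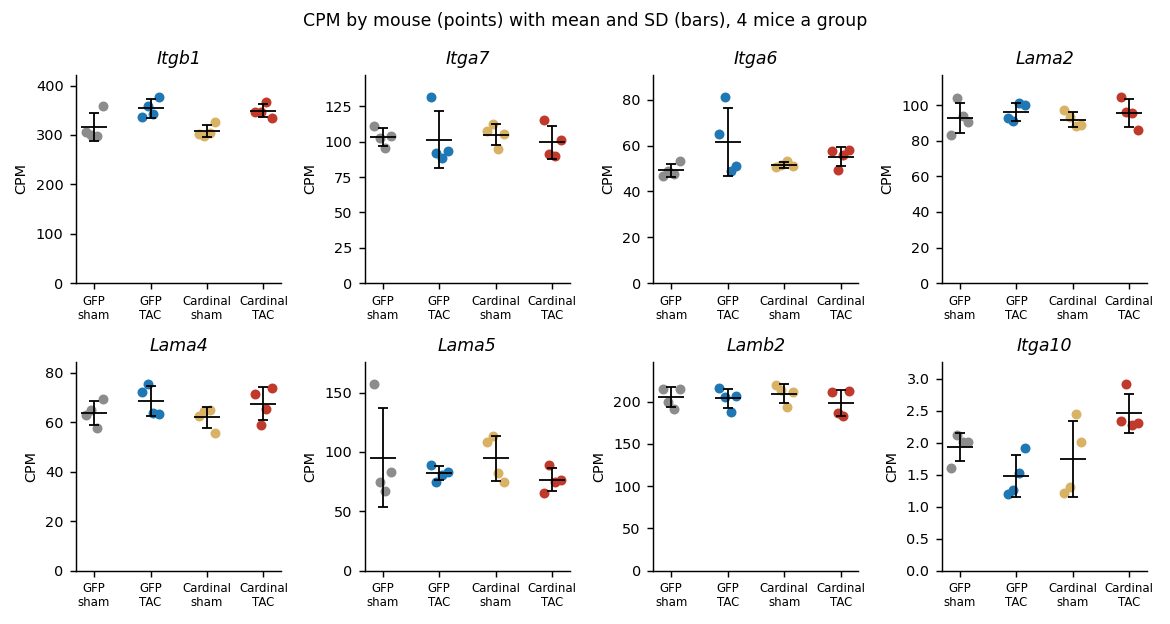
CPM of 7 abundant members and of Itga10 in every mouse (points, 4 per group) with the mean and SD (bars) on axes that start at 0. Lama2, Lama4, Lamb2 and Itga7 overlap between all groups, single mice stand out for Lama5 (157 CPM in AAV9-GFP sham replicate 1) and Itga7 (131.7 CPM in AAV9-GFP TAC replicate 1), and Itga10 is higher in all AAV9-Cardinal TAC than in all AAV9-GFP TAC mice.

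Cell type markers moved with TAC in these bulk samples, where a change in the number of cells of a type and a change in RNA per cell cannot be told apart. The 6 fibroblast markers summed to between 391.7 and 449.7 CPM in AAV9-GFP sham and between 599.8 and 806 CPM in AAV9-GFP TAC hearts, and 3 of the 6 were called higher. In AAV9-Cardinal hearts the sums were between 387.5 and 422 CPM after sham and between 393.5 and 620.7 CPM after TAC, with 1 of 6 called higher. Without AAV9-Cardinal TAC replicate 1 the highest sum after TAC was 413.8 CPM, inside the range of the sham mice. In that setting 1 of 6 was still called, where 8.41% of all genes were. Tcf21 and Pdgfra, which mark resident fibroblasts, were between 2.31 and 3.14 and between 19.6 and 22.8 CPM in AAV9-GFP sham, and between 2.70 and 3.90 and between 20.7 and 31.3 CPM in AAV9-GFP TAC hearts. The 6 endothelial markers summed to between 446.8 and 546 CPM in AAV9-GFP sham and between 521 and 635 CPM in AAV9-GFP TAC hearts, with 2 of 6 called higher. The cardiomyocyte markers had 5 of 6 called lower with AAV9-GFP and 0 of 6 called with AAV9-Cardinal, and the 6 macrophage markers 1 called higher and 0 called. After TAC with all mice, 8.49% of all genes were called higher and 8.92% lower with AAV9-GFP. With AAV9-Cardinal the shares were smaller, at 3.1% and 3.38%. Between the viruses after TAC, the 6 fibroblast markers all had log2 differences below 0 in AAV9-Cardinal hearts (median -0.36), 4 with an unadjusted p under 0.05 and 0 called, and the 6 cardiomyocyte markers all had differences above 0 (median 0.23), 5 with an unadjusted p under 0.05 and 0 called. Without AAV9-Cardinal TAC replicate 1, 4 of the fibroblast markers were called lower (median -0.55) and 3 of the cardiomyocyte markers higher (median 0.29). With all mice, 15% of all genes had an unadjusted p under 0.05 in this comparison and 0.101% were called (edgeR). Without that mouse, 3.13% of all genes were called. The part of these markers in the integrin and laminin changes was not tested.

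Genes of related pathways were set beside the members, from lists written with results of these data known. Of 15 other basement membrane genes, 12 rose and 0 fell after TAC with AAV9-GFP and 6 rose and 0 fell with AAV9-Cardinal, with median log2 fold changes of 0.62 and 0.32. Over all genes, 8.49% were higher with AAV9-GFP and 3.1% with AAV9-Cardinal. Col4a1, the main collagen of basement membranes, rose by 1.11 (SE 0.12) and 0.72 (SE 0.12) on the log2 scale, and Col4a2, its partner, by 1.03 (SE 0.11) and 0.60 (SE 0.11). Sparc, which binds collagen, rose by 1.02 (SE 0.11) and 0.72 (SE 0.11). Fbln2, a fibulin, rose by 1.03 (SE 0.11) and 0.67 (SE 0.11), and Col15a1, a collagen of the basement membrane zone, by 1.22 (SE 0.14) and 0.55 (SE 0.14). Without AAV9-Cardinal TAC replicate 1, 5 of the 15 rose with AAV9-Cardinal, where 3.77% of all genes did. Col15a1 was then at 0.43 (SE 0.13, adjusted p = 0.0565, edgeR).

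Of 31 other integrin ligands, 23 were tested. With AAV9-GFP 14 rose, where 8.49% of all genes did, and with AAV9-Cardinal 8 rose, where 3.1% did. With either virus 0 were lower, and the medians were 0.75 and 0.34. The lists overlap: Postn and Col1a1 are also fibroblast markers above, and Nid1 is also among the basement membrane genes. Tnc, which encodes the alpha9 ligand tenascin-C, rose by 2.94 (SE 0.36) and 1.85 (SE 0.35), and Postn, which is bound by alphav integrins, by 2.87 (SE 0.29) and 1.37 (SE 0.28). Without AAV9-Cardinal TAC replicate 1 the latter was 0.88 (SE 0.15, adjusted p = 0.00493). Col6a2, of the collagen that anchors cells to the interstitium, rose by 1.02 (SE 0.13) and 0.53 (SE 0.13), and Emilin1, of elastic fibers, by 0.81 (SE 0.11) and 0.46 (SE 0.11). Col1a1 rose by 1.46 (SE 0.19) with AAV9-GFP and had a log2 fold change of 0.57 (SE 0.19, adjusted p = 0.0881) with AAV9-Cardinal, or 0.27 (SE 0.11, adjusted p = 0.160) without AAV9-Cardinal TAC replicate 1. Of the 23 ligands, 9 rose with AAV9-Cardinal without this mouse, where 3.77% of all genes did, with a median of 0.25 over the ligands.

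Of 30 integrin activators and adhesion adaptors, 29 were tested. With AAV9-GFP 8 rose and 1 fell, where 8.49% of all genes were higher and 8.92% lower. With AAV9-Cardinal 4 rose and 0 fell, where 3.1% of all genes were higher and 3.38% lower. The medians were 0.16 and 0.10. Tln1, the talin that activates integrins, rose by 0.49 (SE 0.064) with AAV9-GFP and had a log2 fold change of 0.15 (SE 0.064, adjusted p = 0.181) with AAV9-Cardinal. Actn1, an actin crosslinker of adhesions, rose by 0.45 (SE 0.064) and 0.26 (SE 0.064), and Parvb, a partner of the integrin-linked kinase, by 0.32 (SE 0.066) and 0.27 (SE 0.066). Tgfb1i1, an adhesion adaptor, rose by 0.54 (SE 0.11) and Rsu1 by 0.29 (SE 0.077) with AAV9-GFP, and they were at 0.25 (SE 0.11) and 0.10 (SE 0.078) with AAV9-Cardinal.

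Of 21 genes of the other laminin receptors, the dystroglycan complex and the syndecans, 1 rose and 1 fell with AAV9-GFP and 0 changed with AAV9-Cardinal at the threshold, and 8 and 5 of them had an unadjusted p under 0.05, where 29.9% and 21.8% of all genes did. Sgca, a sarcoglycan of the muscle membrane, fell by 0.38 (SE 0.066, adjusted p = 0.0012) with AAV9-GFP and was at -0.11 (SE 0.066) with AAV9-Cardinal. Sdc1 rose by 0.52 (SE 0.15, adjusted p = 0.0297) with AAV9-GFP and was at 0.22 (SE 0.16) with AAV9-Cardinal. The medians of the list were 0.004 and 0.02.

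The study crossed Cardinal with surgery to ask whether raised Cardinal alters the hypertrophic heart. Between AAV9-Cardinal and AAV9-GFP hearts after TAC, 0 of the 33 members passed the threshold with edgeR, where 0.101% of all genes did. At an unadjusted p under 0.05 there were 5 members (Itga3, Itga9, Itga10, Itgal and Itgb5), or 5 of 33 where 15% of all genes had such a p. DESeq2 called 1 member, Itga9, where it called 3.3% of the genes with an adjusted p. Without AAV9-Cardinal TAC replicate 1, edgeR called 1 member, again Itga9, where 3.13% of all genes were called. The median log2 difference of the members was -0.13, and that of all genes -0.01.

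Itga9 was lower with AAV9-Cardinal after TAC by a log2 difference of -0.42 (SE 0.094), with no overlap between the 4 mice of each group and an adjusted p of 0.0759 (edgeR). The adjusted p was 0.0398 without AAV9-Cardinal TAC replicate 1 and 0.00369 with DESeq2, and the log2 difference was -0.43 and -0.41. The groups also did not overlap for Itga10, a collagen-binding subunit with 49 to 62 counts in AAV9-Cardinal TAC and 28 to 44 counts in AAV9-GFP TAC hearts, with a log2 difference of 0.74 (SE 0.21, adjusted p = 0.118, edgeR) and with the uncertain counting given above. Such separation occurred in 6.77% of all genes. Lamc1 and the other laminins had 0 members with an unadjusted p under 0.05 in this comparison. Over the same mice the fibroblast markers lay lower and the cardiomyocyte markers higher with AAV9-Cardinal, as given above.

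Between the viruses in sham hearts, 0 of 33 members passed with edgeR (0.0119% of all genes) and 0 with DESeq2 (0.0237% of all genes with an adjusted p), and 1 member, Itgb7, had an unadjusted p under 0.05 (2.59% of all genes). Itga8 and Itgb8 were higher in all AAV9-Cardinal than in all AAV9-GFP sham mice, although the margin for Itga8 was narrow (2.602 against 2.593 CPM). Groups did not overlap for 2.36% of all genes. The difference in the TAC response between the viruses was likewise called for 0 of 33 members by edgeR (0.0119% of all genes) and for 0 by DESeq2 (3.21% of all genes with an adjusted p), and without AAV9-Cardinal TAC replicate 1 by edgeR for 0 (0.463% of all genes). At an unadjusted p under 0.05 there were 5 members (Itga3, Itga9, Itga10, Itgb7 and Itgb8) and 10.2% of all genes. For Itga9 the difference in response was -0.37 (SE 0.13, adjusted p = 0.381), for Itga5 -0.10 (SE 0.23), for Lamb3 0.14 (SE 0.30) and for Lamc1 -0.10 (SE 0.088). A call with 1 virus and not the other, as for Itgb3, Itgb8 and Lamb1, is therefore not a shown difference between the viruses.

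**Figure D5:**
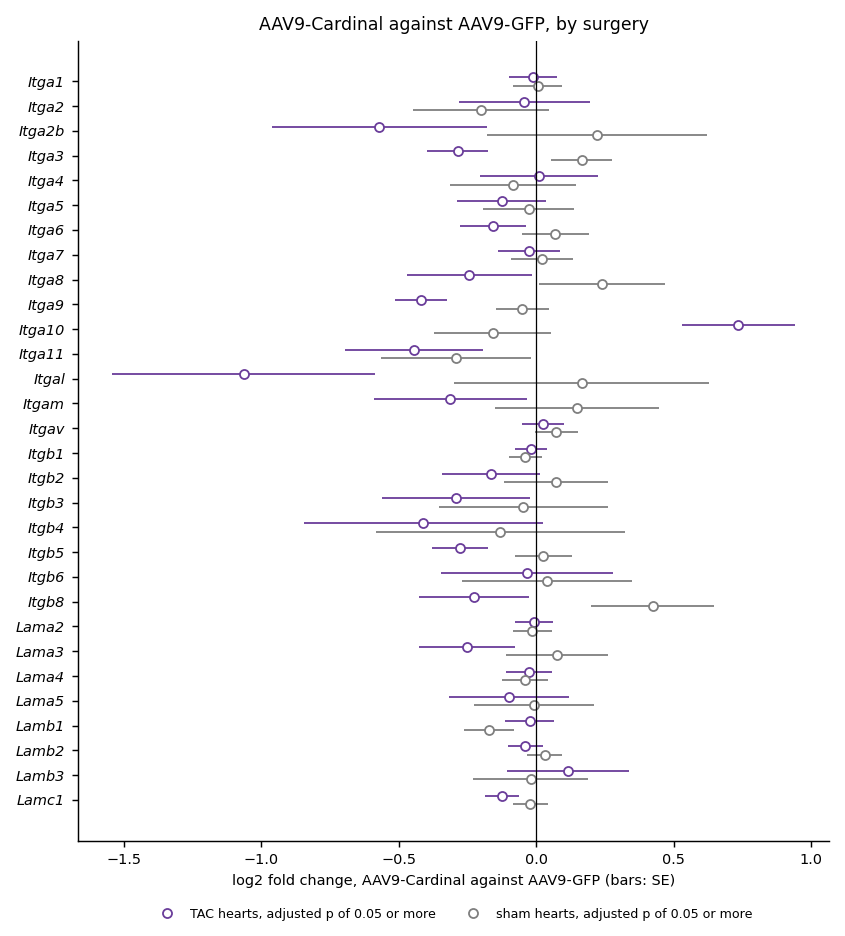
Log2 difference of AAV9-Cardinal against AAV9-GFP with its standard error for 30 of the 33 analysed members (those left out include Itgax and Itgb7, which have many zeros), in TAC hearts (purple) and sham hearts (grey). No point has an adjusted p under 0.05; Itga9 lies at -0.42 and Itga10 at 0.74 in TAC hearts.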

How the data were processed

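Polyadenylated RNA of the apex was sequenced in 16 mice as single-end 50-base reads. The deposited values are raw counts for each Ensembl gene, not normalized, and the submitters' processing notes name FastQC, HISAT2 2.1.0, edgeR 3.26.1 and GRCm38. The counting program, annotation, use of strand and treatment of reads with several matches were not given in the sources used here. Of 55573 genes, 55394 were named with GENCODE M21 and 179 were not.

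Testing used edgeR 4.0.16 under R 4.3.3. Libraries were scaled by TMM, filterByExpr by group kept 16857 genes, and 1 quasi-likelihood model covered the 16 mice. Benjamini-Hochberg adjustment ran over these genes, at a threshold of 0.05. An SE printed with an edgeR log2 fold change was derived from its test. It is the size of the change divided by the square root of the F statistic. Nothing in the labels ties replicate numbers to shared litters or days, and p-values measure the spread between these mice. Any pair of mice of the same group differed by more than sampling noise (chi-square per degree of freedom between 5.1 and 14.9). CPM used TMM library sizes, and per-kilobase values the merged exon length. Ratios within a mouse (log2 CPM, prior count 2) were compared by exact 2-sided permutation (70 labelings). Every analysed member but 1, which is in the counts of members but not reported here, was named, and of each pathway list up to 5 genes with the lowest adjusted p past the threshold in AAV9-GFP hearts. The members, lists and tests were chosen with earlier results of these data known. Alternatives were DESeq2 1.42.0, median-of-ratios size factors, 2 other filters on low counts, mitochondrially encoded genes left out, a robust fit, a replicate block, only the 8 mice compared, at least a 1.5-fold change, a prior count of 0.5 and each mouse left out. The lists of basement membrane genes, ligands and fibroblast and cardiomyocyte markers were also counted without AAV9-Cardinal TAC replicate 1, an alternative chosen after seeing the data. Promoters came from RefSeq on GRCm38.p6. Tables and plots were made with Python 3.11.15, scipy 1.17.1, pandas 2.3.3, matplotlib 3.10.9 and numpy 2.4.6.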

Additional observations from a re-analysis of the deposited data

Results flagged for a closer look

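In 10 of the 131 groups of 4 mice with values for an analysed member, 1 mouse lay far from the other 3 (Dixon's test, 95% critical value), where chance flags about 1 in 20 groups, or 6.55. The flags of Itgax and Itgb7 come from groups whose other 3 mice were at 0. Any value above 0 is flagged in such a group, so the chance rate does not cover them. In AAV9-Cardinal TAC hearts, Itga10 was at 2.91 CPM in replicate 4 against 2.28 to 2.35 CPM, Lamc1 at 163.6 CPM in replicate 4 against 178 to 180.1 CPM, and Itga8 at 3.23 CPM in replicate 1 against 1.91 to 2.02 CPM. Replicate 1 of that group was also the only mouse of the group above 0 for Itgax (0.531 CPM) and Itgb7 (0.443 CPM). In AAV9-GFP TAC hearts, Itga7 was at 131.7 CPM in replicate 1 against 88.6 to 93.4 CPM. In AAV9-GFP sham hearts, replicate 4 had Itgb1 at 358.9 CPM against 298 to 307 CPM and Lamb1 at 82.8 CPM against 60.9 to 64.0 CPM, and replicate 3 was the only one above 0 for Itgax (0.294 CPM). In AAV9-Cardinal sham hearts, Itga8 was at 3.25 CPM in replicate 1 against 2.60 to 2.69 CPM.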

How the results depend on the processing

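The count of members called after TAC with AAV9-GFP was 7, between 5 and 9 with single mice left out, 9 with DESeq2 and 6 with a replicate block. Itga5, Itga9, Itgb8 and Lamb3 were called with AAV9-GFP in every setting run, and Lamc1 in all but the requirement of at least a 1.5-fold change. The count with AAV9-Cardinal was 5, and 3 with at least a 1.5-fold change, 3 with no filter on low counts, 7 with DESeq2, between 2 and 5 with single mice left out, and 0 with the replicate block. Replicate numbers 5 and 6 occur only in AAV9-Cardinal TAC and 7 only in AAV9-GFP TAC. The block gives each of these mice a term of its own, so they do not inform the comparisons. The labels do not pair the mice by replicate number. Correlations of same-numbered mice ranged from -0.040 to 0.211. Those of replicate 1 were 0.149, 0.130, 0.211 and 0.103, and those of the other numbers were at most 0.0897. Differently numbered mice reached 0.218. Whether the replicate 1 mice share an effect was not tested, and the block result is given only here. Between the viruses after TAC the count was 0, 1 with DESeq2 and between 0 and 1 with single mice left out, and in sham hearts and for the difference in response it was 0 in each setting run. The cause of these changes was not tested. Leaving out single mice moved the log2 ratio of Lamb1 to Lamb2 after TAC between 0.16 and 0.30 (AAV9-GFP) and between 0.37 and 0.52 (AAV9-Cardinal), and that of Itga5 to Itga7 between 0.71 and 1.04 and between 0.59 and 0.92. Differences near 0 changed sign: Lama4 to Lama2 after TAC lay between -0.019 and 0.11 (AAV9-GFP) and between -0.032 and 0.13 (AAV9-Cardinal). Between the viruses, Lamb1 to Lamb2 lay between -0.042 and 0.11 after TAC and between -0.25 and -0.11 after sham, Itga5 to Itga7 between -0.35 and 0.055 after TAC and between -0.15 and 0.057 after sham, and Lama4 to Lama2 between -0.11 and 0.054 after TAC and between -0.084 and 0.022 after sham. Of the 12 member results called, 0 changed sign in any setting. Of the 153 not called, 68 did in some setting and 12 were called in some.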
